A study of Rattus norvegicus with 18 samples.

Results

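The genes described here are the rat genes for cyclin E (Ccne1, Ccne2), its kinase (Cdk2), the E2F factors E2f1 and E2f8, and Uhrf1, an E2F target. They were taken by symbol, as the probe sets to which the platform annotation gives exactly 1 gene symbol equal to 1 of these names. The rule found 8 probe sets, 2 each for Ccne2 and Cdk2 and 1 for each other gene, so that 6 of 14217 measured genes are members. No measured value entered the choice of these 8 probe sets, although the genes themselves were picked with results from these arrays already known. Where a gene had 2, the probe set of higher mean signal over all arrays represented it.

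The study concerned the intestinal toxicity of CDK4 and CDK6 inhibitors, and read RNA of scraped mucosa from the jejunum, a part of the small intestine, on 18 arrays in 6 groups of 3. All arrays came from male Sprague Dawley rats of 6 to 8 weeks, dosed once a day by oral gavage. The vehicle group received methyl cellulose. The compound groups received 30 or 100 mg/kg/day of palbociclib, 36 or 120 mg/kg/day of abemaciclib, or 300 mg/kg/day of ribociclib. Dosing lasted 4 or 15 days, but the duration behind each array is not labelled. Palbociclib was given in the same methyl cellulose as the vehicle group, whereas abemaciclib and ribociclib were given in a citrate-buffered hydroxypropyl methylcellulose with tween, so that compound and carrier cannot be told apart when these 2 compounds are set against vehicle. Array B of the group called abemaciclib 120 carries 100 in its title and 120 in its treatment label, and it was grouped by the treatment label. The arrays are lettered A to C within a group and are not tied to animals, so p-values measure the spread between arrays, which may be technical.

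Cyclin E, encoded by Ccne1 and Ccne2, binds the kinase CDK2 late in G1 and drives entry into S phase. In resting cells the retinoblastoma protein holds E2F factors on their target genes; CDK4 and CDK6 with D-type cyclins begin to phosphorylate that protein, and cyclin E with CDK2 carries the phosphorylation further, which releases activating factors such as E2F1. E2F8 is an atypical E2F that is itself made in S phase and represses E2F targets, and Uhrf1, an E2F target, encodes the protein that brings the maintenance methyltransferase DNMT1 to newly copied DNA. In the small intestine these genes are active mainly in the dividing cells of the crypts, whereas the villus is covered by cells that have left the cycle.

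The start regions of the members are shown because E2F factors act there and because most of these genes moved together on the arrays. RefSeq promoter windows on build GRCr8 were matched by symbol for 3 of the 6 members, Ccne1, Cdk2 and Uhrf1, the last with 3 windows. For Ccne1 and Cdk2 the bases outside the annotated gene are printed, and for Uhrf1 the 250 bases before the start of the most downstream window. Capitals mark matches to the E2F letters TTTCCCGC, TTTCGCGC, TTTGCCGC or TTTGGCGC, or to CCAAT, on either strand, and each sequence runs 5′ to 3′ on the strand of its gene.
Ccne1, chr1:99927987-99928159, minus strand: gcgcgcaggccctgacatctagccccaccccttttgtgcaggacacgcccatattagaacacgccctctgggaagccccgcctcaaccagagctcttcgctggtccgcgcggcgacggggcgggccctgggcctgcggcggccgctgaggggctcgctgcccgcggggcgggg
Cdk2, chr7:1721965-1722128, minus strand: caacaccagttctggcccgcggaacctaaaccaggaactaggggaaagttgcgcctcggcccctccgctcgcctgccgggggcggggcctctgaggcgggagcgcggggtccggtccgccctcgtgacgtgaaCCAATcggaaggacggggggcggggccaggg
Uhrf1, chr9:1222936-1223185, plus strand: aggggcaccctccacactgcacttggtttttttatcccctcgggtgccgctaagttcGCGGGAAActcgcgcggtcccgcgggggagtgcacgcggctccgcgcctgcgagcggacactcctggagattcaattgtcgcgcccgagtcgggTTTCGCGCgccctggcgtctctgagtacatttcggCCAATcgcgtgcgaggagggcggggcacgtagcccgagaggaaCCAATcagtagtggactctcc

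The Uhrf1 stretch held TTTCCCGC on the opposite strand, read there as its complement, and TTTCGCGC on the printed strand, the first bases of the 2 matches lying 193 and 99 bases before the start. It also held CCAAT at 64 and 21 bases before the start. The Cdk2 stretch held 1 CCAAT, 117 bases before the start used for the window, and no E2F letters. The other 2 Uhrf1 windows held CCAAT and no E2F letters, and the Ccne1 window held none of the motifs. No window of the 3 genes held TTTGAA, the core letters of the CHR element, and the E2F and CCAAT matches did not overlap. Of all 33469 promoter windows of 300 bases in the same table, 2.14% held 1 of the E2F words, 37.5% held CCAAT and 18.3% held TTTGAA. A match describes letters and no measured binding. The Uhrf1 stretch lies inside the annotated gene, which spans chr9:1220162-1241792 and has earlier starts. The other genes span chr1:99918672-99927986 (Ccne1), chr5:29082169-29094879 (Ccne2), chr7:1714392-1721964 (Cdk2), chr3:163524739-163535563 (E2f1) and chr1:107701985-107720538 (E2f8) on the same build.

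Values are the deposited log2 signals, so a difference of 1 is a doubling of signal, and differences were tested with limma across all genes, with p adjusted by Benjamini and Hochberg and a threshold of 0.05. For 1 gene alone, the smallest p that an exact permutation test can give with 3 arrays a group is 0.1. No probe set was compared in level with another. Array medians lay between 5.41 and 5.51, pairs of arrays correlated at 0.918 to 0.993, and 5 of the 6 members, all but Cdk2, had every vehicle array below the array medians. Cdk2 itself had vehicle signals close to them. In vehicle 11 of 11 measured markers of villus enterocytes lay above the array medians. So did 3 of 5 measured duodenum and 2 of 3 measured ileum markers, so the counts do not set the jejunum apart. In bulk scrapings, fewer cells of a type and less RNA per cell cannot be told apart.

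With abemaciclib at 120 mg/kg/day, 5 of the 6 members rose against vehicle and none fell: Cdk2 4.49-fold, E2f8 4.43-fold, Ccne1 3.85-fold, Uhrf1 2.92-fold and E2f1 1.62-fold. Ccne2 did not pass on the probe set that represents it, but its other probe set was 3.09-fold higher. Of all genes, 18% were called in this comparison. No member passed with abemaciclib at 36 mg/kg/day, ribociclib at 300 mg/kg/day or either dose of palbociclib. Over the 6 groups together, the limma F test called 5 members, all but Ccne2, where 22.6% of all genes were called. The plot of signals by array shows the same split.

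**Figure D1:**
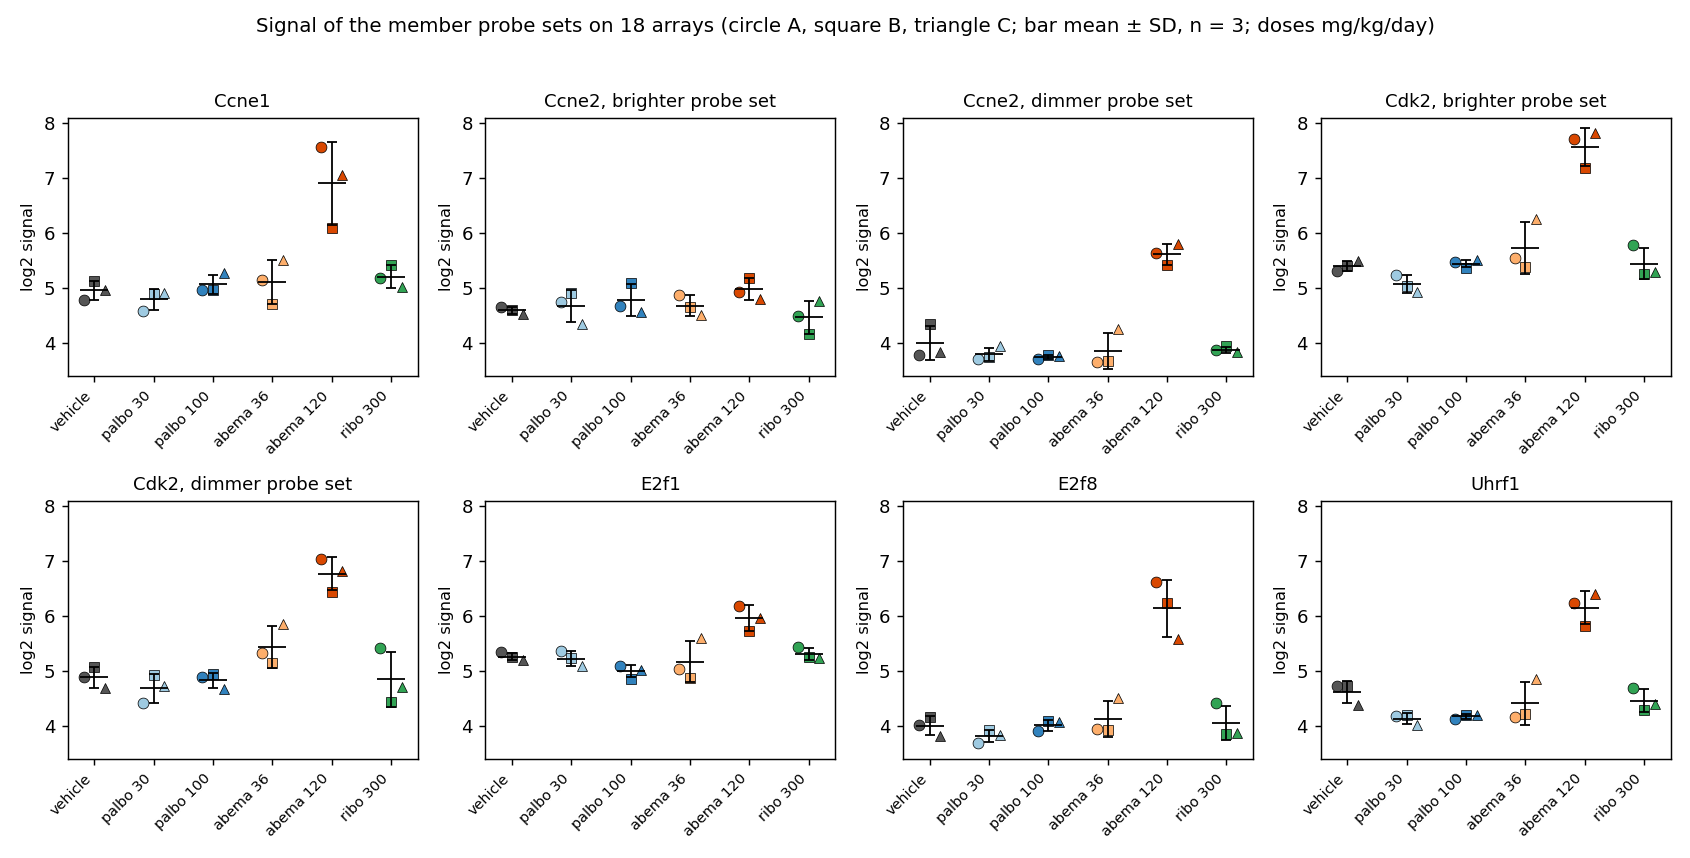
log2 signal of the 8 probe sets of the 6 genes (vertical axes) on each of the 18 arrays, by treatment group (horizontal axes, doses in mg/kg/day); circles, squares and triangles are arrays A, B and C, and black bars give the mean ± SD of 3 arrays. In 7 of the 8 panels the 3 arrays of abemaciclib at 120 mg/kg/day lie above every other array, the exception being the brighter Ccne2 probe set, where they read 4.81 to 5.19 and overlap other groups. The share of all probe sets with such a separation was not counted, so 7 of 8 is not shown to be particular to the members.

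Ccne1 encodes cyclin E1, an activating partner of CDK2. It read 4.78, 5.14 and 4.96 on vehicle arrays A, B and C, and 7.58, 6.09 and 7.06 with abemaciclib at 120 mg/kg/day. Abemaciclib at 36 mg/kg/day gave 5.15, 4.71 and 5.51, and ribociclib gave 5.18, 5.43 and 5.02. Palbociclib gave 4.59, 4.9 and 4.92 at 30 mg/kg/day and 4.96, 4.97 and 5.27 at 100 mg/kg/day. Every array of the high abemaciclib dose was above every other array, but its own arrays were far apart: its mean was 6.91 ± 0.76 (SD, n = 3), and that of vehicle 4.96 ± 0.18. The log2 difference from vehicle was 1.95 (SE 0.28, 95% interval 1.34 to 2.55, limma adjusted p = 0.000291). In the order of group means ribociclib came next at 5.21 ± 0.21, and the ranges of the 5 lower groups overlapped from neighbour to neighbour.

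Ccne2 encodes cyclin E2, and its probe sets disagreed. The brighter probe set, which represents the gene, read 4.65, 4.61 and 4.53 in vehicle and 4.93, 5.19 and 4.81 with abemaciclib at 120 mg/kg/day. In the other groups it read 4.88, 4.66 and 4.51 (abemaciclib 36), 4.49, 4.16 and 4.77 (ribociclib 300), 4.75, 4.91 and 4.35 (palbociclib 30) and 4.67, 5.1 and 4.56 (palbociclib 100). The high abemaciclib arrays were all above the vehicle arrays but overlapped palbociclib 100, palbociclib 30 and abemaciclib 36, and the difference from vehicle of 0.38 (SE 0.18, interval -0.01 to 0.76) did not pass (limma adjusted p = 0.175).

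The dimmer Ccne2 probe set gave another picture. It read 3.79, 4.35 and 3.84 in vehicle and 5.64, 5.43 and 5.8 with abemaciclib at 120 mg/kg/day. Abemaciclib at 36 mg/kg/day gave 3.66, 3.68 and 4.25, and ribociclib gave 3.88, 3.94 and 3.84. Palbociclib gave 3.71, 3.75 and 3.94 at the lower dose and 3.71, 3.78 and 3.76 at the higher. Here the high abemaciclib dose stood clear of all other arrays, 1.63 above vehicle (SE 0.16, 3.09-fold, limma adjusted p = 4.27e-05 over all probe sets). Across the 18 arrays the 2 Ccne2 probe sets correlated at 0.38, and at -0.41 over the 15 arrays without abemaciclib at 120 mg/kg/day. The dimmer one correlated at 0.93 with Ccne1, 0.95 with Cdk2, 0.94 with E2f8 and 0.97 with Uhrf1 over the 18 arrays, which share the group with the highest signals. Where in the transcript each probe set lies was not analysed here.

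Cdk2 encodes the kinase that cyclin E activates. Its brighter probe set read 5.32, 5.4 and 5.5 in vehicle and 7.71, 7.19 and 7.82 with abemaciclib at 120 mg/kg/day. It read 5.55, 5.38 and 6.26 with abemaciclib at 36 mg/kg/day and 5.78, 5.26 and 5.3 with ribociclib. Palbociclib gave 5.25, 5.04 and 4.94 at 30 mg/kg/day and 5.47, 5.37 and 5.51 at 100 mg/kg/day. The high abemaciclib group, at 7.57 ± 0.34, was 2.17 above vehicle at 5.41 ± 0.09 (SE 0.22, interval 1.7 to 2.63, limma adjusted p = 2.13e-05). Array C of abemaciclib 36, at 6.26, was the highest array outside that group. The 3 palbociclib 30 arrays lay below the vehicle arrays without overlap, but the difference of -0.33 (interval -0.8 to 0.13) did not pass (adjusted p = 0.998).

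The second Cdk2 probe set moved in the same way. It read 4.88, 5.07 and 4.69 in vehicle, 7.04, 6.44 and 6.81 with abemaciclib at 120 mg/kg/day, and 5.32, 5.14 and 5.86 with abemaciclib at 36 mg/kg/day. Its other arrays were at 4.41, 4.92 and 4.72 (palbociclib 30), 4.89, 4.94 and 4.67 (palbociclib 100) and 5.41, 4.44 and 4.7 (ribociclib 300). At the high dose it was 3.69-fold above vehicle (log2 difference 1.88, SE 0.24, limma adjusted p = 0.000194 over all probe sets). At the lower dose all 3 arrays were above the vehicle arrays, but the 1.47-fold difference did not pass (adjusted p = 0.346). The Cdk2 probe sets correlated at 0.95 over the 18 arrays and at 0.76 over the 15 without the high dose.

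E2f1 encodes the activating factor that the retinoblastoma protein restrains. It read 5.34, 5.26 and 5.19 in vehicle and 6.18, 5.72 and 5.97 with abemaciclib at 120 mg/kg/day. Abemaciclib at 36 mg/kg/day gave 5.04, 4.87 and 5.6, and ribociclib gave 5.44, 5.26 and 5.24. Palbociclib gave 5.36, 5.23 and 5.09 at the lower dose and 5.08, 4.86 and 5.01 at the higher. The high abemaciclib arrays were above all others, by a margin of 0.12 over array C of abemaciclib 36. Of the 5 members called against vehicle, E2f1 had the smallest log2 difference, 0.69 (SE 0.17, interval 0.33 to 1.06, limma adjusted p = 0.0098). Without abemaciclib 120 array A the call was lost, with an adjusted p of 0.0605 and a difference of 0.58. With palbociclib at 100 mg/kg/day all 3 arrays were below the vehicle arrays, yet the difference of -0.28 (interval -0.64 to 0.08) did not pass (adjusted p = 0.756).

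E2f8 encodes the atypical repressor of the family. It read 4.01, 4.16 and 3.82 in vehicle and 6.61, 6.24 and 5.58 with abemaciclib at 120 mg/kg/day. Abemaciclib at 36 mg/kg/day gave 3.94, 3.93 and 4.5, and ribociclib gave 4.41, 3.85 and 3.87. Palbociclib gave 3.69, 3.92 and 3.84 at the lower dose and 3.9, 4.08 and 4.07 at the higher. The high abemaciclib dose, at 6.14 ± 0.52, did not overlap any group, and vehicle was at 4 ± 0.17. The log2 difference was 2.15 (SE 0.22, interval 1.68 to 2.61, limma adjusted p = 2.13e-05). Array C of abemaciclib 36 and array A of ribociclib were the next highest arrays.

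Uhrf1 encodes a reader of DNA that is methylated on 1 strand and that recruits DNMT1 after replication. It read 4.72, 4.72 and 4.38 in vehicle and 6.23, 5.82 and 6.4 with abemaciclib at 120 mg/kg/day. Abemaciclib at 36 mg/kg/day gave 4.16, 4.22 and 4.86, and ribociclib gave 4.69, 4.29 and 4.4. Palbociclib gave 4.17, 4.2 and 4.01 at 30 mg/kg/day and 4.12, 4.19 and 4.19 at 100 mg/kg/day. The high abemaciclib arrays were above all others, at a log2 difference from vehicle of 1.55 (SE 0.18, interval 1.16 to 1.93, limma adjusted p = 6.14e-05). Uhrf1 was also the member with the clearest distance between vehicle and palbociclib, both dose groups lying wholly below vehicle. The differences were -0.48 (interval -0.86 to -0.1) at 30 and -0.44 (interval -0.82 to -0.06) at 100 mg/kg/day, which reached unadjusted p = 0.0173 and 0.027 but did not pass after adjustment in limma (adjusted p = 0.998 and 0.653).

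No member was called in the other groups against vehicle. For abemaciclib at 36 mg/kg/day the member differences ran from -0.2 (Uhrf1) to 0.32 (Cdk2), and 2.08% of all genes were called. At an unadjusted p under 0.05 in limma there were 0 of 6 members and 1960 of 14217 genes. With ribociclib the member differences ran from -0.15 (Uhrf1) to 0.24 (Ccne1), while 3.73% of all genes were called. There 0 of 6 members and 2869 of 14217 genes had an unadjusted p under 0.05. With palbociclib at 100 mg/kg/day the member differences ran from -0.44 (Uhrf1) to 0.18 (Ccne2). At 30 mg/kg/day they ran from -0.48 (Uhrf1) to 0.07 (Ccne2). Palbociclib called 0% of genes at 100 and 0% at 30 mg/kg/day, with 1023 and 357 of 14217 genes at an unadjusted p under 0.05, so the members were not apart from the other genes in having no call. The intervals leave room for changes of moderate size: for Ccne1, the widest, that of abemaciclib 36 reached from -0.44 to 0.76 and that of ribociclib from -0.36 to 0.85.

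**Figure D2:**
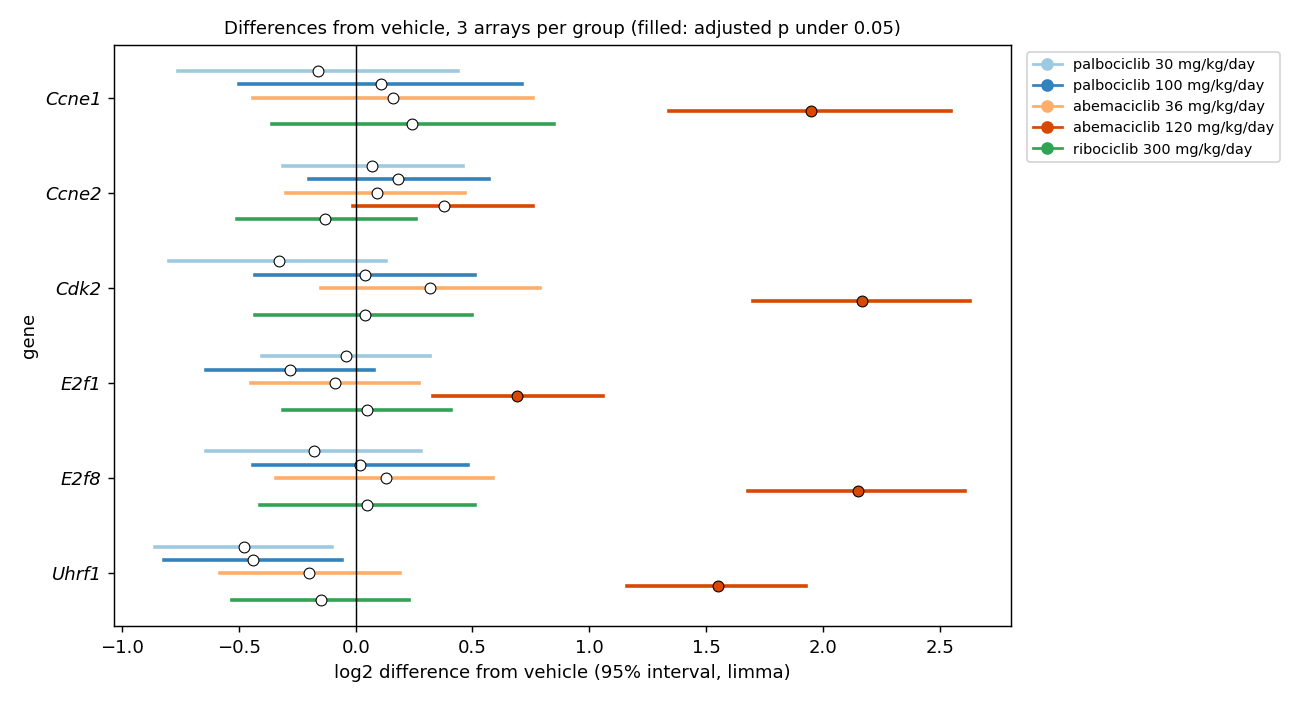
log2 difference from vehicle (horizontal axis) with its 95% limma interval for each gene (vertical axis) and compound group, 3 arrays per group; filled points passed the adjusted threshold of 0.05. The 5 filled points are those of Ccne1, Cdk2, E2f1, E2f8 and Uhrf1 with abemaciclib at 120 mg/kg/day, between 0.69 and 2.17.

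Between the abemaciclib doses, 5 members were higher at 120 than at 36 mg/kg/day, where 7.59% of all genes were called. E2f8 was 4.06-fold higher (limma adjusted p = 0.000116), Cdk2 3.6-fold (0.000285), Ccne1 3.45-fold (0.00139), Uhrf1 3.35-fold (1e-04) and E2f1 1.73-fold (0.00979). The brighter Ccne2 probe set differed by 0.29 and did not pass (adjusted p = 0.39), while the dimmer one was 3.38-fold higher (8.48e-05 over all probe sets). These values and those against vehicle share the 3 high-dose arrays. The E2f1 call was lost without abemaciclib 36 array A (adjusted p = 0.0548) or array B (0.0584), and without abemaciclib 120 array A (0.0668), and with an RNA quality covariate, the 3′ minus 5′ actin signal, in the fit (0.0604). Both E2f1 (0.124) and Ccne1 (0.0593) lost it when only these 2 groups entered the fit.

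Between the palbociclib doses 0 of 6 members and 0% of all genes were called, with 0 members and 619 genes at an unadjusted p under 0.05 in limma. Both dose steps cover the same ratio of doses, and whether they differ was tested as the abemaciclib step minus the palbociclib step. The difference was 1.82 for E2f8 (SE 0.31, interval 1.17 to 2.48, limma adjusted p = 0.0253) and 1.7 for Uhrf1 (SE 0.26, interval 1.16 to 2.24, adjusted p = 0.0149), which were 2 of 50 genes called, or 0.352% of all genes. It was 1.52 for Ccne1 (adjusted p = 0.107), 1.48 for Cdk2 (0.0531) and 1.03 for E2f1 (0.0678), which did not pass. For Ccne2 it was 0.18 on the brighter probe set (0.818) and 1.81 on the dimmer one (SE 0.22, 0.00669 over all probe sets). By the representing probe sets the number of members called was 2, and leaving out single arrays moved it between 0 and 5. It was 0 without abemaciclib 120 array A, abemaciclib 36 array A or palbociclib 100 array A, 1 without palbociclib 100 array B or any 1 palbociclib 30 array, and 5 without abemaciclib 36 array C or abemaciclib 120 array B.

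Set beside the highest doses of the other compounds, which are not matched to it, abemaciclib at 120 mg/kg/day gave higher signals for most members. Against ribociclib at 300 mg/kg/day all 6 members were called higher, where 27.2% of all genes were called: Cdk2 by 4.37-fold (limma adjusted p = 5.44e-05), E2f8 by 4.28-fold (5.44e-05), Ccne1 by 3.25-fold (0.000905), Uhrf1 by 3.24-fold (5.86e-05), E2f1 by 1.56-fold (0.0118) and Ccne2 by 1.42-fold (0.0492). The Ccne2 call rested on single arrays, its adjusted p reaching 0.205 without ribociclib array B and 0.146 without abemaciclib 120 array B. It was also lost without ribociclib array A (0.0698) or abemaciclib 120 array A (0.102) or C (0.0533). E2f1 was lost without abemaciclib 120 array A (0.0642), with the RNA quality covariate (0.0891) and with only these groups in the fit (0.066). Abemaciclib and ribociclib shared a carrier, so the carrier does not differ in this pair. Against palbociclib at 100 mg/kg/day 5 members were called higher, where 18.3% of all genes were called: E2f8 by 4.38-fold (4.01e-05), Cdk2 by 4.37-fold (4.12e-05), Uhrf1 by 3.96-fold (1.35e-05), Ccne1 by 3.58-fold (0.000573) and E2f1 by 1.96-fold (0.00128). The brighter Ccne2 probe set differed there by 0.2 and did not pass (0.477). The dimmer one was 3.66-fold higher than with palbociclib 100 (2.55e-05 over all probe sets) and 3.33-fold higher than with ribociclib (4.01e-05).

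The members were also compared with each other over the arrays. Over all 18 arrays, which share their groups, pairs of members correlated at 0.22 to 0.96 with a median of 0.87 over 15 pairs. The 5 pairs with Ccne2 were the lowest, at 0.22 to 0.49. After the group means were taken out the pairs lay between -0.47 and 0.87 with a median of 0.37. Cdk2 with E2f1 (0.87) and Cdk2 with Uhrf1 (0.84) were then the closest pairs. Within groups, array C of abemaciclib 36 was the highest of its group for 5 of the 6 members, Ccne2 being the exception, and array A of ribociclib was the highest for 4, namely Cdk2, E2f1, E2f8 and Uhrf1. Array B of abemaciclib 120, the array whose title gives another dose, was the lowest of its group for Ccne1, Cdk2, E2f1 and Uhrf1.

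The genes whose signals ran most like each member were ranked by Pearson r over the 18 arrays. For E2f8 they were Kifc1 (r = 0.983), Spag5 (0.982) and Tk1 (0.982), genes of the mitotic spindle and of thymidine salvage. For Uhrf1 they were Mms22l (0.974), Sass6 (0.973) and Zfp367 (0.973), and for Cdk2 Zwilch, Yars2 and Mms22l, each at 0.975. Ccne1 ran most like Asf1b (0.967), a histone chaperone, Chtf18 (0.961) and Fv1 (0.961), and E2f1 most like Atad5 (0.917), Polr3e (0.913) and Nup93 (0.908). The brighter Ccne2 probe set had no close partner of this kind: COX2 (0.835), Aurkc (0.791) and Klc1 (0.747) were the nearest.

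The wider pathway was described over 131 listed genes, 114 of them measured, with the members left out. With abemaciclib at 120 mg/kg/day 53 were higher than vehicle and 5 lower, so that 50.9% were called where 18% of all genes were, with a median log2 difference of 0.6 against -0.02 over all genes. Of 33 other E2F targets of S phase 21 rose and 0 fell (median 0.98), among them Tk1, thymidine kinase, 5.49-fold (limma adjusted p = 8.45e-05), the nuclease Fen1 3.93-fold (0.000278), the polymerase gene Pola1 4-fold (0.00028) and the chromatin assembly factor Chaf1a 2.64-fold (0.00018). Of 23 genes of origin licensing and firing 13 rose and 1 fell (median 0.74). The helicase subunits Mcm2 (3.58-fold, 0.000164), Mcm5 (2.58-fold, 0.000442), Mcm4 (5.91-fold, 0.000497) and Mcm7 (4.29-fold, 0.000704) had the smallest p among them, and Orc4 was 1.64-fold lower (0.0187).

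Among 8 other cyclins and kinases 5 rose and 0 fell (median 1.86). Ccna2, the cyclin that takes over CDK2 after cyclin E, was 13.2-fold higher (limma adjusted p = 0.00188), and Cdk1, the mitotic kinase, 11.2-fold (0.00179). The D-type cyclins Ccnd1 and Ccnd2 were 5.06-fold (0.00572) and 3.76-fold (0.000629) higher. Of the drug targets, Cdk4 was 3.51-fold higher (0.0115), whereas Cdk6 differed by -0.05 and did not pass (0.806). Of 14 activators and inhibitors of CDK2, 4 rose and 2 fell (median 0.32). The 2 that fell were Cdkn1c, which encodes p57, 10.1-fold lower (0.00106), and Cdkn1b, which encodes p27, 2.09-fold lower (0.0154). Those that rose were Cdkn3, a phosphatase that acts on CDK2, 7.85-fold (0.00315), the CDK subunits Cks2 4.65-fold (0.00526) and Cks1b 4.43-fold (0.00223), and Pkmyt1 1.45-fold (0.0417). Cdkn1a, which encodes p21, differed by 0.32 and did not pass (0.414).

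The E2F and DP list held 7 measured genes beside the members, of which 3 rose and 1 fell (median 0.43). Tfdp1, the main dimer partner of E2F1, was 3.25-fold higher (limma adjusted p = 0.0185) and E2f5 2.83-fold (0.00322), while Tfdp2 was 4.31-fold lower (0.000189). E2f7, the other atypical factor, was 1.35-fold higher (0.0401). Of 9 pocket proteins and DREAM or MuvB genes 3 rose and 1 fell (median -0.36): Foxm1 2.44-fold (0.00011), Lin9 1.9-fold (0.0137) and Mybl2 1.83-fold (0.018) were higher, and Rb1, the retinoblastoma gene itself, differed by -0.55 in log2 (0.0477).

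Among 13 genes of UHRF1 partners and DNA methylation 4 rose and 0 fell (median 0.36). Hells, a remodeler needed for methylation, was 4.86-fold higher (limma adjusted p = 0.00018), its activator Cdca7 4.61-fold (0.000549), Dnmt1 3.45-fold (0.000216) and Uhrf2 2.22-fold (0.0376). Cdca7 also belongs to the crypt stem cell list. In the list of cyclin E turnover 0 of 7 genes passed in limma and 1, Fbxw7, had an unadjusted p under 0.05 (log2 difference 0.61, adjusted p = 0.166). Fbxw7 encodes the ubiquitin ligase subunit that marks cyclin E for destruction. Skp1 (-0.18, 0.423), Usp28 (-0.41, 0.432) and Gsk3b (0.27, 0.506) did not pass either.

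**Figure D3:**
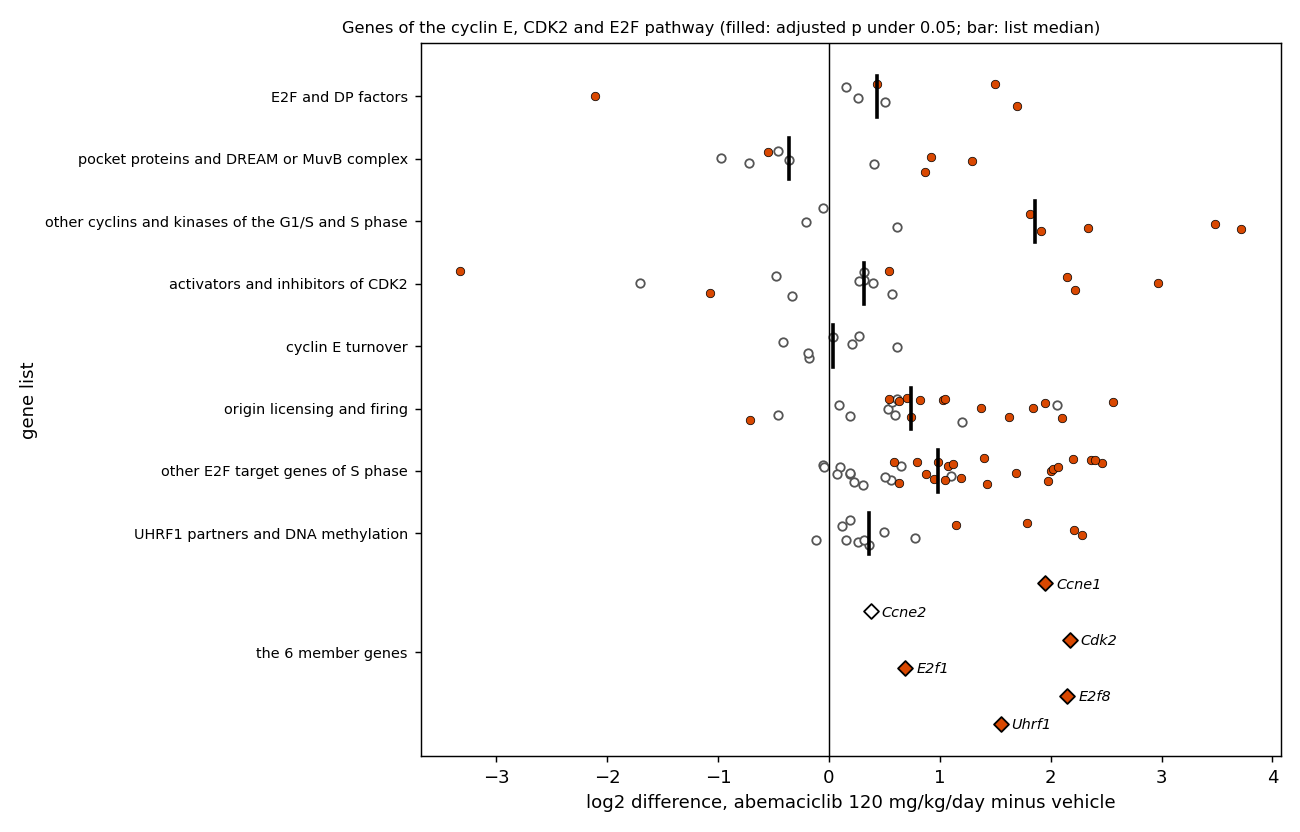
log2 difference of abemaciclib at 120 mg/kg/day from vehicle (horizontal axis) for each measured gene of the 8 pathway lists and for the 6 members (vertical axis); filled symbols passed the adjusted threshold of 0.05, vertical bars are list medians, and the vertical spread within a list has no meaning. The list of other cyclins and kinases has its median at 1.86, the list of cyclin E turnover at 0.04.

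In the other groups fewer of the 114 genes passed. With abemaciclib at 36 mg/kg/day 4 were higher and 2 lower (5.26% called, against 2.08% of all genes, median -0.05): Mcm10, a replication initiation factor, was 12.5-fold higher (limma adjusted p = 0.0221), Fbxw7 2.37-fold (0.0344), Chek1 2.33-fold (0.0451) and Orc1 1.53-fold (0.0236), and Cdkn1b was 2.63-fold (0.0194) and Lin54 2.4-fold (0.0306) lower. With ribociclib 1 was higher and 6 lower (6.14% called, against 3.73% of all genes, median -0.2). Dnmt3b was 4.26-fold higher (0.0119), and E2f2 was 3-fold (0.0195), Topbp1 2.56-fold (0.0191), Atad2 1.89-fold (0.0382), Orc4 1.87-fold (0.0203), Rbl1 1.82-fold (0.0203) and Usp1 1.79-fold (0.0403) lower. With palbociclib none passed in limma at either dose, and 11 of 114 at 100 mg/kg/day and 6 at 30 mg/kg/day had an unadjusted p under 0.05. The list medians there were -0.18 and -0.2. The groups share the vehicle arrays, so these values are not independent of each other. All genes of these groups that passed are named.

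Markers of dividing and crypt cells were higher, like most members, at the high abemaciclib dose. The mean log2 signal of 8 markers of dividing cells, none of them a member, was 5.93, 6.38 and 5.77 on vehicle arrays A, B and C, and 8.76, 8.23 and 8.47 with abemaciclib at 120 mg/kg/day. It was 5.86, 5.84 and 7.11 with abemaciclib at 36 mg/kg/day and 7.17, 5.49 and 5.12 with ribociclib, so the arrays that were highest in their groups for most members, C and A, were also highest here. Palbociclib lay between 5.45 and 6.26. Of these markers 7 of 8 rose with the high abemaciclib dose (median 2.54). Crypt stem cell markers rose in 8 of 8 (median 1.96), from 4.92 to 5.28 in vehicle to 6.55 to 7.42, and 5 of the 8, among them Lgr5 and Ascl2, were not above the array medians in vehicle. Their mean was above vehicle also with abemaciclib 36, at 5.52 to 6.17, where 1 of 8 was called higher but no member was called. It read 4.67 to 4.87 with palbociclib 30, 4.92 to 5.4 with palbociclib 100 and 4.86 to 5.61 with ribociclib.

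Other marker lists differed in how many genes were called at the high abemaciclib dose. Of 11 villus enterocyte markers 0 rose and 2 fell (median -0.27), a share of 18.2% beside the 18% of all genes. The T and NK cell list fell in 11 of 15 genes (median -2.18), its mean going from 7.08 to 7.3 in vehicle to 4.99 to 5.55, and the list of macrophages and dendritic cells fell in 7 of 10 (median -1.89). The T and NK mean was also below vehicle in groups without a called member. It read 6.09 to 6.3 with abemaciclib 36 (5 of 15 lower) and 5.66 to 6.86 with ribociclib (4 lower). With palbociclib 100 it read 6.12 to 6.54 (0 called), whereas palbociclib 30, at 6.87 to 7.31, overlapped vehicle. The macrophage and dendritic cell mean was below vehicle with ribociclib too, at 6.46 to 6.84 (1 of 10 lower). At the high abemaciclib dose ileum markers rose in 2 of 3, from 7.88 to 8.97 in vehicle to 10.76 to 11.59. With ribociclib their mean read 9.43 to 11.85, but 0 of these 3 genes passed against vehicle. Of 8 goblet cell markers 2 rose and 1 fell (median 0.23), and of 8 enteroendocrine and 5 endothelial markers 1 each fell (medians -0.35 and 0). In limma 0 markers passed for the duodenum (5 measured), tuft cells (4), B and plasma cells (5), mast cells (7), smooth muscle (8), fibroblasts (7) and enteric neurons and glia (5), with 1 tuft and 1 B cell marker and 0 of the others at an unadjusted p under 0.05. The 5 neuron and glia markers were all at or below the array medians in vehicle. The part of these shifts in the members' rise was not tested.

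The members followed the dividing-cell markers to different degrees. Over the 15 arrays without the high abemaciclib dose the correlation with the 8 markers was 0.93 for E2f8, 0.7 for Cdk2, 0.61 for Uhrf1, 0.49 for Ccne1, 0.35 for E2f1 and -0.14 for Ccne2. Over all 18 arrays it was 0.94, 0.94, 0.92, 0.88, 0.83 and 0.38 in the same order, the points sharing their groups. The plot of members against these markers shows E2f8 on a narrow band and Ccne1 on a wide one at low marker signal.

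**Figure D4:**
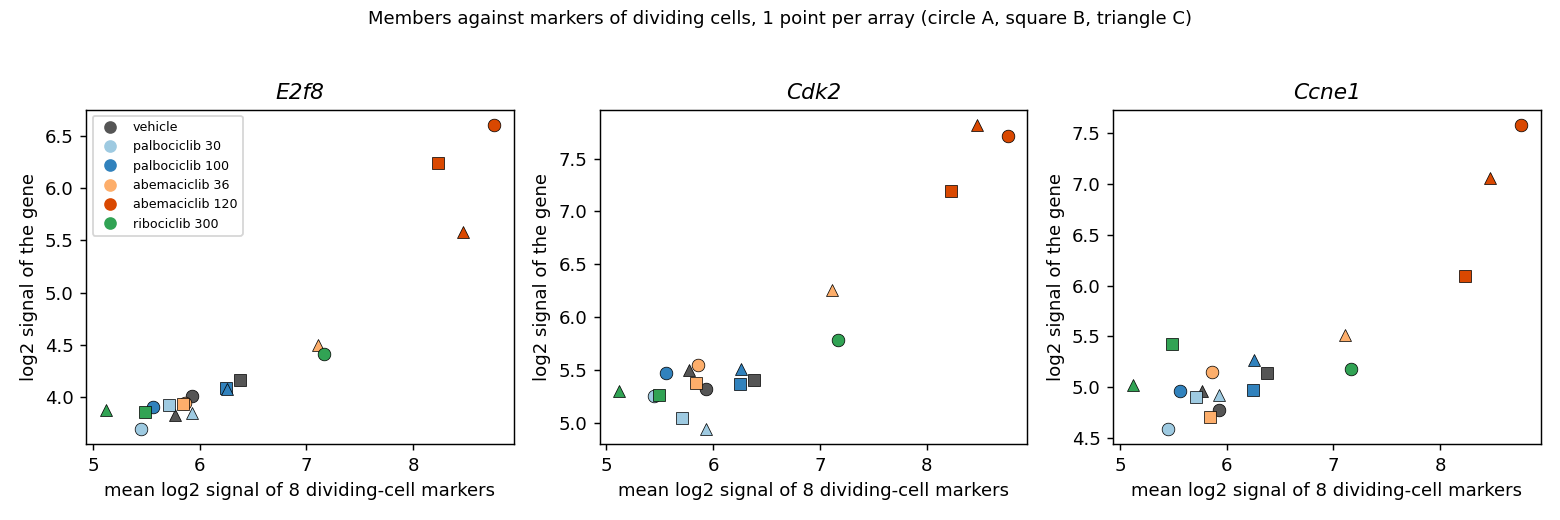
log2 signal of E2f8, Cdk2 and Ccne1 (vertical axes) against the mean log2 signal of 8 markers of dividing cells (horizontal axes), 1 point per array, coloured by group and shaped by array letter. The 3 arrays of abemaciclib at 120 mg/kg/day lie at 8.23 to 8.76 on the horizontal axis, and all other arrays at or below 7.17.

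The array's own sign of RNA quality, the 3′ minus the 5′ log2 signal of beta-actin controls, was 1.05, 0.91 and 0.86 on the high abemaciclib arrays, 0.65, 0.79 and 0.57 in vehicle and 0.4 to 0.9 on the others. With this value as a covariate the same 5 members passed against vehicle, with log2 differences of 2.18 for Cdk2, 2.02 for E2f8, 1.86 for Ccne1, 1.48 for Uhrf1 and 0.68 for E2f1 (limma adjusted p = 0.000198, 0.000237, 0.003, 0.00065 and 0.0445). Over all genes the calls fell in that fit, to 1596 of 14217 from 2560 without the covariate. E2f1 did not pass with it against abemaciclib 36 (0.0604) or ribociclib 300 (0.0891), nor did E2f8 (0.106) and Uhrf1 (0.0672) for the difference between dose steps. The members' correlation with this value was 0.47 to 0.69 over all 18 arrays and -0.02 to 0.24 over the 15 without the high dose.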

How the data were processed

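Total RNA of 18 rat jejunum scrapings was labelled and read on Affymetrix arrays, 3 per group. The deposited values are log2 signals, 1 per probe set and array, between 2.86 and 14.34; the submitters' processing notes name Transcriptome Analysis Console, Affymetrix Expression Console and RMA, with settings not given in the sources used here. RMA as usually run equalises the signal distribution between arrays, so a change in total RNA per cell would not show. Detection calls were not used, so a low signal is not shown to be above background, and the number of arrays limits the precision.

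The file held 31099 probe sets: 57 controls, 20826 with 1 gene symbol, 436 with several and 9780 unnamed here. By Entrez identifier 20758 matched the RefSeq gene table (GRCr8), with 0 changes of symbol. The probe set of highest mean signal stood for its gene, which gave 14217 genes, 4525 with more than 1 probe set. Groups follow the treatment label. Same-letter arrays of the 2 abemaciclib doses deviated together (r = 0.13, 0.59 and 0.3 for A, B and C), a pairing seen in the values and not in the labels; for no other pair of groups were all 3 letters above 0.1. limma 3.58.1 in R 4.3.3 fitted 1 mean per group over all 18 arrays (12 residual degrees of freedom, eBayes with trend); p-values are two-sided and adjusted over all genes of a comparison, 95% intervals come from the same fit, and folds are log2 differences taken out of the log. The step was tested on simulated data. Other steps used Python 3.11.15, pandas 2.3.3, numpy 2.4.6 and matplotlib 3.10.9.

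The members, 8 pathway lists and 16 marker lists were chosen with earlier results of these data known. Named beside the members are the 3 most alike genes of each (no placeholder symbols). Also named are up to 4 genes of a pathway list with the smallest p against vehicle at the high abemaciclib dose. Chosen after their values were seen were Cdk4, Cdk6, Cdkn1a, Cdkn1b, Orc4, Pkmyt1 and the called genes of the other groups. Alternatives were the replicate letter as a block, the RNA quality covariate, a 1.5-fold minimum, a fit of just the compared groups, no trend, the mean of a gene's probe sets, every probe set as a feature, quantile re-normalization, array median centring, no genes of mean signal under the 30th percentile, and each array left out.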

Additional observations from a re-analysis of the deposited data

Results flagged for a closer look

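For E2f8 and Uhrf1 the step between doses differed between the compounds by the test of the difference itself. E2f8 rose by 2.02 in log2 from 36 to 120 mg/kg/day of abemaciclib and differed by 0.2 from 30 to 100 mg/kg/day of palbociclib, a difference of 1.82 (limma adjusted p = 0.0253). Uhrf1 rose by 1.74 with abemaciclib and differed by 0.04 with palbociclib, a difference of 1.7 (adjusted p = 0.0149). Both calls were lost without abemaciclib 36 array A, abemaciclib 120 array A or palbociclib 100 array A, and that of E2f8 also without palbociclib 100 array B or any 1 palbociclib 30 array. Both were lost with the RNA quality covariate (0.106 and 0.0672).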

How the results depend on the processing

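Of 966 member values under other settings or without an array, 921 kept their side of the threshold, 32 lost the call and 13 gained it. The direction of 0 called values reversed. Among the 921 that kept their side, 26 uncalled values in 15 comparisons changed sign. The number of members called fell to 3 when genes of mean signal under the 30th percentile (log2 5.08) were left out, in abemaciclib 120 against vehicle, abemaciclib 36, ribociclib 300 and palbociclib 100 and in the F test, because Ccne2, E2f8 and Uhrf1 were themselves removed. It was also 3 for abemaciclib 120 against 36 with only these groups in the fit. For the difference between dose steps it was 4 after quantile re-normalization, 0 with dim genes left out and 0 with the RNA quality covariate, and 0 to 5 without single arrays. Leaving out dim genes removed E2f8 and Uhrf1, the only members called there. Ccne2 passed against vehicle on the mean of its probe sets (log2 1, adjusted p = 2.48e-05) but not on the brighter one alone under the other settings that kept it. Its call against ribociclib was also lost with every probe set as a feature (0.0658), without trend (0.0602), with only the groups compared (0.112) and with the RNA quality covariate (0.295). E2f1 lost its calls against abemaciclib 36 and ribociclib 300 with the RNA quality covariate, with which the F test called 4 members. The covariate left 1246 genes called in the F test, from 3212, and 1596 at the high abemaciclib dose against vehicle, from 2560. For the other lost calls the cause was not tested. Over all groups 16 of 45 same-letter pairs of arrays had deviations correlated above 0.1 (range -0.31 to 0.59). The fit of 1 mean per group did not take the letters as pairs, also not between the abemaciclib doses. With the letter as a replicate block the members called stayed at 5 against vehicle, 5 against abemaciclib 36, 6 against ribociclib and 2 for the dose steps, and the genes called were 2717 against vehicle at the high abemaciclib dose (2560 without it) and 26 for the dose steps (50). Genes called without single arrays ranged from 1349 to 2497 for the high abemaciclib dose against vehicle, 46 to 531 for the lower (296) and 120 to 1317 for ribociclib (531). Under the other settings they ranged from 1596 to 3520 for the high abemaciclib dose against vehicle, 309 to 1284 against abemaciclib 36 (1079), 1378 to 5570 against ribociclib 300 (3865) and 970 to 3430 against palbociclib 100 (2598), from 29 to 660 for ribociclib against vehicle, 1 to 91 for the dose steps and 1246 to 4123 for the F test (3212). Signals below the array medians in vehicle limit what a fold means for the other members, and Cdk2 was close to this limit. In vehicle its brighter probe set read 5.32, 5.4 and 5.5, and its second one 4.88, 5.07 and 4.69.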

Other observations

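Single arrays differed within groups in ways the labels do not describe. For Cdk2, array C of abemaciclib 36 read 6.26 where arrays A and B read 5.55 and 5.38, and for E2f8 it read 4.5 where they read 3.94 and 3.93. Its mean signal over the 8 markers of dividing cells was 7.11, against 5.86 and 5.84. In the ribociclib group array A read 4.41 for E2f8, against 3.85 and 3.87, and 7.17 for those markers, against 5.49 and 5.12.

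Within the abemaciclib 120 group Ccne1 spread from 6.09 to 7.58 and E2f8 from 5.58 to 6.61, but with different arrays at the low end, B for Ccne1 and C for E2f8.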
